A study of Sus scrofa with 23 samples.

Results

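Nerve terminals release transmitter when a calcium signal drives synaptic vesicles to fuse with the membrane. The SNARE proteins SNAP25, syntaxin 1A (STX1A) and VAMP2 zip together to pull vesicle and membrane into contact. Complexins hold this complex ready, and synaptotagmins such as SYT1 sense the calcium. Active zone scaffolds such as bassoon and the RIM proteins place vesicles at the release site, and NSF with its SNAP adaptors takes used SNARE complexes apart. Synapsins tether the vesicles, RAB3 proteins guide them, transporters of the SLC17 family fill them with glutamate, and dynamins, synaptojanin and clathrin adaptors recover the membrane afterwards.

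Genes of this release machinery were examined in pig prefrontal cortex as a list of 38 symbols. A matching symbol was found for 35 of the 38 among the 25880 genes of the table, and all 35 passed the filter on low counts, together with 15049 genes in all. VAMP1, PCLO and UNC13A were not matched to an identifier and were not analysed here. The 35 genes fall into 8 synaptotagmin and DOC2 genes, 5 SNARE and complexin genes and 3 genes of SNARE recycling. The rest are 4 active zone genes, 10 vesicle proteins and 5 genes of vesicle retrieval. In the figures the 8 synaptotagmin and DOC2 genes are headed calcium sensors, a name that need not hold for each.

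The animals were adolescent female Danish slaughter pigs of 20 kg, all awake when dosed, and each gave 1 library of poly-A selected RNA. They had received a single intravenous dose of saline or of psilocybin at 0.08 mg/kg, a tryptamine whose active metabolite psilocin stimulates the serotonin 5-HT2A receptor. They were killed with pentobarbital either 1 day or 1 week afterwards. The groups held 6 psilocybin and 5 saline animals at 1 day, and 6 psilocybin and 6 saline animals at 1 week. The series states 6 animals per group. The labels also divide the libraries into batch 1, with 11, and batch 2, with 12, crossed with the groups, and do not say what the batches were. Animals are numbered within their group, in the order of the submitters' own numbers.

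Each library held between 9504421 and 18654626 assigned counts. All 8 markers of excitatory cortical neurons were detected in every library, among them the kinase gene CAMK2A (mean 3686 CPM, counts scaled to a common library total) and the cortical transcription factor gene TBR1 (89.9 CPM). Markers of inhibitory neurons, astrocytes, oligodendrocytes, their precursors, microglia and vessel cells were detected in every library too, and none that was tested stood at 0. In such bulk tissue, fewer nerve cells and less RNA per nerve cell cannot be told apart. Libraries of 3 animals stood apart from the rest in earlier work on these data (animal 5 of the saline 1 day group, animal 1 of saline 1 week, and animal 6 of psilocybin 1 week). In addition, animal 1 of each of the 4 groups had very low BSN levels. Counts of members are given with and without these libraries.

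The release genes together took between 1.42% and 1.89% of the assigned counts of a library. Levels of different genes are compared only per length, as CPM per kilobase of exon. On that scale the SNARE gene SNAP25 stood highest, with a mean of 1110.7 over all libraries. Next came VAMP2, its partner on the vesicle, with 391.1, and SLC17A7, the main vesicular glutamate transporter of the cortex, with 369.1. The membrane-pinching dynamin gene DNM1 followed with 314.5, and the vesicle membrane protein gene SYP with 275.6. The mean ± SD ranges of VAMP2 and SLC17A7 overlapped in every group. At 1 week after saline they had 399.9 ± 25.8 and 359.4 ± 29.7 CPM per kilobase (SD, n = 6 each).

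The lowest levels per length were those of SLC17A6, a second glutamate transporter (2.98), of the calcium sensor gene DOC2B (3.91) and of the active zone scaffold gene ERC2 (4.96). SNAP25, at the other end, stood apart from every other member in all 4 groups. Between the extremes, the main fast calcium sensor SYT1 had 206.9 CPM per kilobase and its relative SYT2 had 11.9. The complexin genes CPLX2 and CPLX1 had 218.3 and 162.9, and of the RAB3 genes RAB3C and RAB3B had 21.5 and 13.8, below RAB3A.

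**Figure D1:**
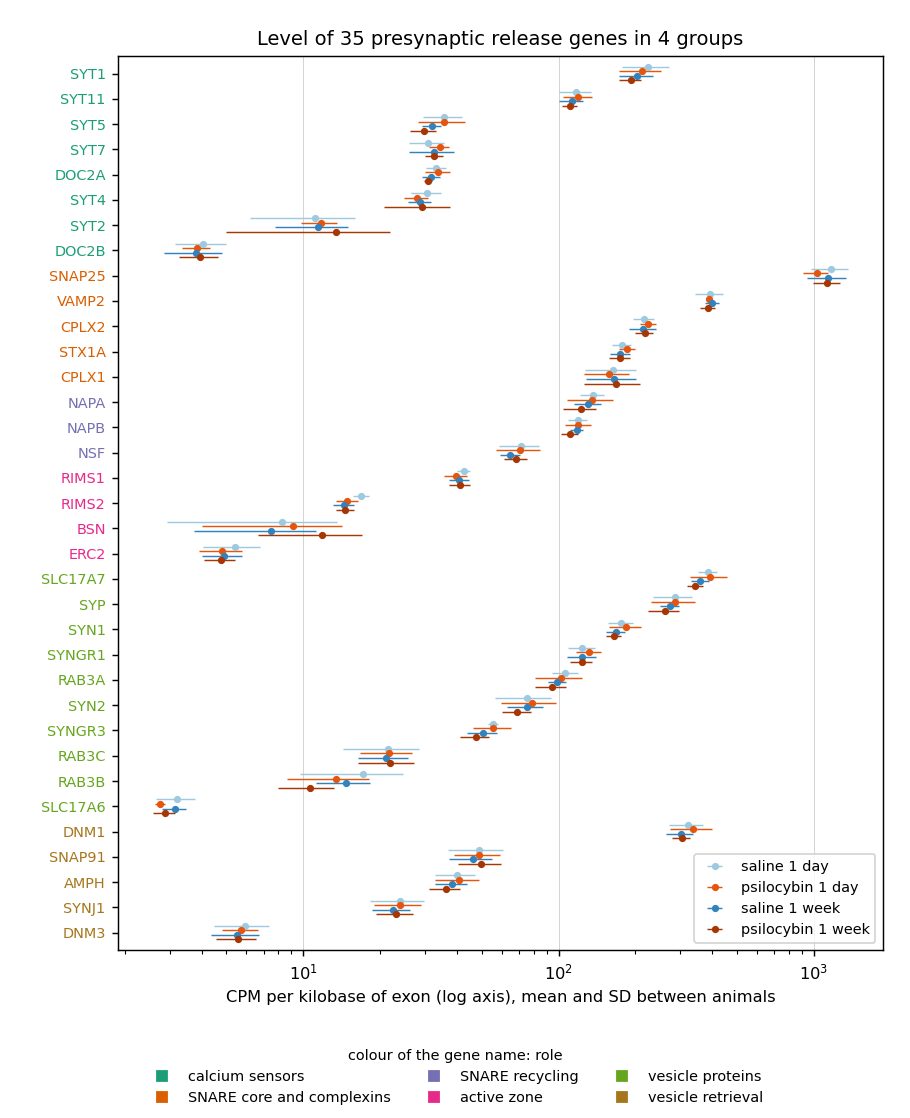
Levels of the 35 release genes by role, in CPM per kilobase of exon on a log axis, as the mean (point) and SD (bar) between animals of each of the 4 groups. SNAP25 is highest at a mean of 1110.7 and SLC17A6 lowest at 2.98, the 4 groups of a gene overlap, and the bars of BSN, SYT2 and RAB3B are the widest.

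Most members varied little between animals. The biological coefficient of variation, edgeR's estimate of the spread between animals beyond counting noise, had a median of 0.129 over the members and 0.143 over all genes tested. The syntaxin gene STX1A was the steadiest member (0.087). The most variable were BSN, which encodes the giant active zone scaffold bassoon (0.394), RAB3B (0.271) and SYT2 (0.267). BSN spanned an 8.26-fold range between animals, and STX1A a 1.37-fold one. In some libraries most members were high or low together, though in none all 35. The number above their own mean ran from 3 in psilocybin 1 week animal 3 to 29 in psilocybin 1 day animal 4 and in saline 1 day animal 4.

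The exons of 9 members overlap those of another gene. For 3 of them the other gene lies on the same strand: BSN with ENSSSCG00000039801, SYNGR3 with TSC2 and SYT5 with PTPRH. The other 6, DNM1, NSF, SYN2, RAB3A, DOC2A and SYN1, overlap a gene on the opposite strand. Counting ignored strand and shared reads between overlapping genes, so part of these counts may belong to the neighbour.

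The first comparison asked how the cortex differed 1 day after psilocybin. No release gene differed from saline beyond the spread between animals: 0 of 35 passed edgeR's quasi-likelihood test at a Benjamini-Hochberg adjusted p of 0.05, against 0% of all 15049 genes. At an unadjusted p under 0.05 there were 2 of 35, against 2.83% of all genes. DESeq2 and limma-voom also called 0 members, with 3 and 2 at the unadjusted threshold. Without the 3 libraries standing apart edgeR had 1 member at that threshold, against 403 of 15088 genes. Without animal 1 of every group it had 2, against 582 of 15060 genes. In no member were the CPM ranges of the treatments apart, which held for 0.126% of all genes. The log2 fold change was above 0 for 20 of 35 members and for 51.4% of all genes, and its median was 0.01 over the members and 0.00 over all genes. Without the 3 libraries standing apart it was above 0 for 7 of 35 (median -0.03), and without animal 1 of every group for 12 of 35 (median -0.03). Within batch 1 alone the median was -0.03, and within batch 2 alone 0.03.

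The intervals limit how large a treatment effect these data leave room for. At 1 day the 95% interval lay within a 1.5-fold difference either way for 33 of 35 members, the exceptions being BSN and RAB3B. The same held for 11417 of all 15049 genes. In VAMP2, the partner of SNAP25 on the vesicle, the log2 interval ran from -0.17 to 0.15, and in the vesicle marker SYP from -0.26 to 0.26. SYT1 had -0.07 (from -0.33 to 0.20) and SLC17A7 had 0.03 (from -0.16 to 0.22).

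RIMS2, a RIM scaffold that docks vesicles near calcium channels (ENSSSCG00000031957, susScr11 chromosome 4, 32999618 to 33029524, minus strand), had an unadjusted p under 0.05. After saline it had 71.8, 65.0, 63.8, 59.1 and 67.0 CPM in the 5 animals. After psilocybin the lowest animal had 49.6, the median was 56.3 and the highest had 65.8. The saline animals were mostly the higher ones, but the groups overlapped. Its log2 fold change of -0.19 ± 0.08 (SE, 95% interval -0.36 to -0.02) had an adjusted p of 1 in edgeR's quasi-likelihood test. The value was -0.24 in batch 1 and -0.16 in batch 2. The related gene RIMS1, in the same role, had -0.10 ± 0.08.

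SLC17A6, the glutamate transporter that is scarce in cortex (ENSSSCG00000013343, chromosome 2, 37096815 to 37137777, minus strand), had the other p under the unadjusted threshold. The saline animals had 18.0, 15.9, 17.7, 23.9 and 16.3 CPM, and the psilocybin animals ran from 14.9 over a median of 15.7 to 16.5. The psilocybin animals lay in a narrow band at or below the low end of the saline range, and 1 saline animal stood well above all others. The log2 fold change was -0.24 ± 0.10 (SE, 95% interval -0.45 to -0.02, adjusted p = 1 with edgeR). Without saline animal 4, the high one, it was -0.11.

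SNAP25 had the next smallest p (ENSSSCG00000026985, chromosome 17, 19141417 to 19227595, plus strand). It had 3086.5, 2849.3, 2362.5, 2468.7 and 3519.2 CPM in the saline animals, and from 2164.3 over a median of 2465.8 to 2839.8 after psilocybin. Of the 5 saline animals, 3 lay above every psilocybin animal and 2 lay within their range. The log2 fold change of -0.22 ± 0.11 (SE, 95% interval -0.43 to 0.00, adjusted p = 1 with edgeR) became -0.10 without saline animal 5, the highest. That library also had the highest scores of ribosomal protein genes (0.91 on the log2 scale above the mean library) and of respiratory chain genes (0.58). Their part in the SNAP25 value was not tested, beyond its size without that animal.

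Of the members with values above 0, those with the smallest p were SYT7, SYNGR1 and STX1A. SYT7, a calcium sensor of slow release, had 195.8, 145.1, 196.5, 191.4 and 143.6 CPM after saline and from 163.7 over 197.4 to 207.7 after psilocybin. Its log2 fold change was 0.17 ± 0.10 (SE), and 0.09 without saline animal 5. The vesicle membrane gene SYNGR1 had 0.11 ± 0.09 and STX1A had 0.08 ± 0.07. In all 3 genes the saline and psilocybin animals overlapped, and the adjusted p was 1 in edgeR for each.

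**Figure D2:**
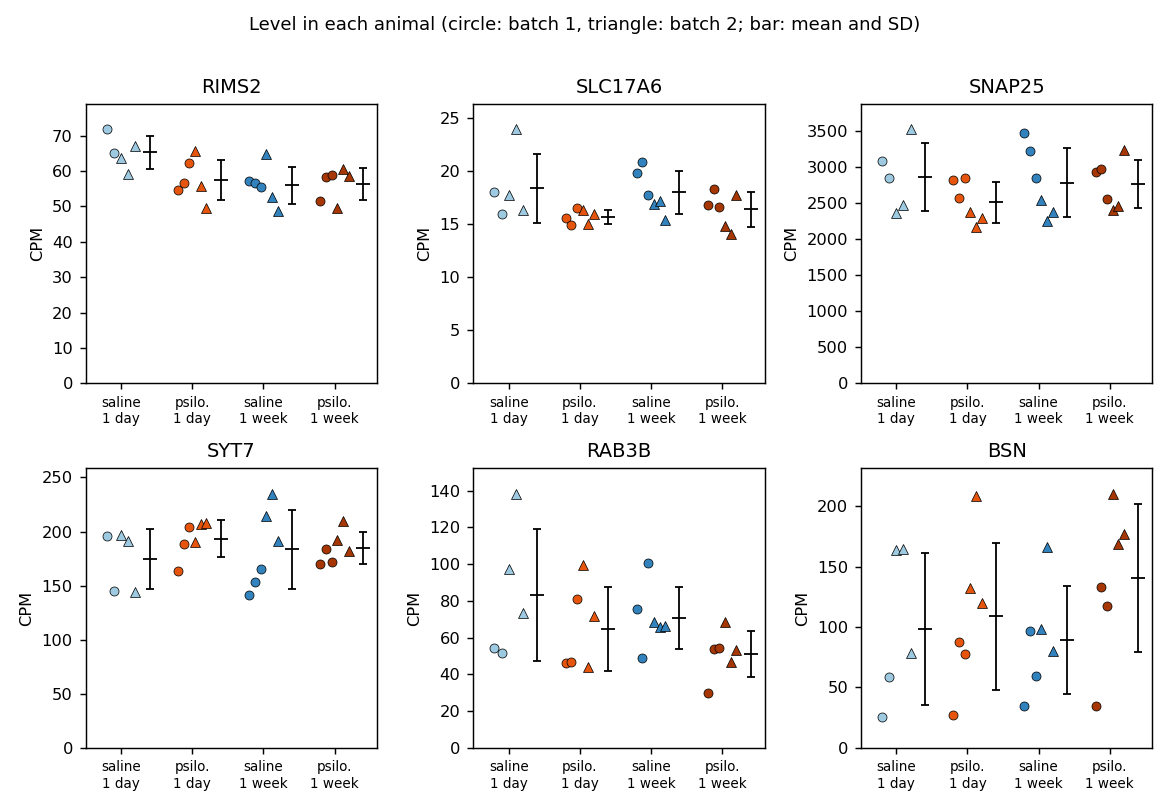
CPM of RIMS2, SLC17A6, SNAP25, SYT7, RAB3B and BSN in every animal by group (circles batch 1, triangles batch 2), with the mean and SD of the group as a bar at its right. The groups overlap in each panel, saline 1 day animal 4 has 23.9 CPM of SLC17A6, and 4 animals of batch 1 have 25.5 to 34.8 CPM of BSN.

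By role, the SNARE and complexin genes had 2 of 5 values above 0 at 1 day and the active zone genes 1 of 4, while the 5 genes of vesicle retrieval all had values between 0.00 and 0.08. The synaptotagmin and DOC2 genes divided evenly, with 4 of 8 above 0. Of the vesicle proteins 6 of 10 were above 0, and of the recycling genes 2 of 3. None of these members passed, and the largest of them on the log2 scale was BSN with 0.31 (95% interval -0.41 to 1.03).

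At 1 week after the dose the release genes again did not differ beyond the spread between animals. With edgeR's quasi-likelihood test and Benjamini-Hochberg adjustment 0 of 35 passed, against 0% of all genes. At an unadjusted p under 0.05 there was 1 of 35, against 1.99% of all genes, and DESeq2 and limma-voom called 0 members, each with 1 at that threshold. Without the 3 libraries standing apart edgeR had 0 members there, against 449 of 15088 genes. Without animal 1 of every group it had 1, against 603 of 15060 genes. No member had treatment ranges that lay apart, against 0.0465% of all genes. The log2 fold change was above 0 for 15 of 35 members and 48.8% of all genes, with medians of -0.01 and -0.00. Without the 3 libraries standing apart the member count was 11 (median -0.03), and without animal 1 of every group it was 15 (median -0.02). Within the batches the median was -0.01 in batch 1 and -0.07 in batch 2. The 95% interval lay within 1.5-fold for 32 of 35 members, all but BSN, RAB3B and SYT2, and for 11860 of all 15049 genes.

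RAB3B, a RAB3 form that guides vesicles to their docking sites (ENSSSCG00000021036, chromosome 6, 160194484 to 160255632, plus strand), was the member with an unadjusted p under 0.05 at 1 week. The saline animals ran from 48.8 over a median of 67.3 to 100.4 CPM, and the psilocybin animals from 29.8 over 53.4 to 68.3. The 2 ranges overlapped widely. The log2 fold change was -0.50 ± 0.23 (SE, 95% interval -0.97 to -0.03, adjusted p = 1 with edgeR). It was -0.71 in batch 1 and -0.26 in batch 2, and -0.32 without saline animal 3, which had the highest level. At 1 day RAB3B had -0.30 ± 0.24. The other RAB3 genes at 1 week had -0.07 ± 0.10 (RAB3A) and 0.04 ± 0.12 (RAB3C).

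BSN had the value farthest from 0 in the other direction (ENSSSCG00000011384, chromosome 13, 32107077 to 32197004, plus strand). It ran from 34.7 over 88.5 to 166.1 CPM after saline and from 34.8 over 151.2 to 210.7 after psilocybin. In both groups the lowest animal was animal 1, and 3 psilocybin animals lay above every saline animal. The log2 fold change was 0.63 ± 0.33 (SE, 95% interval -0.06 to 1.31, adjusted p = 1 with edgeR), with 0.58 in batch 1, 0.68 in batch 2 and 0.69 without animal 1 of every group.

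The remaining members with the smallest p at 1 week all had values near 0. SLC17A6 had -0.13 ± 0.10 and NAPB, an adaptor that brings NSF to used SNARE complexes, had -0.09 ± 0.08. SNAP91, a clathrin assembly protein of nerve terminals, had 0.11 ± 0.11, and NSF, the ATPase itself, had 0.08 ± 0.11. SNAP25 had 0.00 ± 0.10 and RIMS2 had 0.01 ± 0.08 at this time. Of the vesicle proteins 9 of 10 had values below 0, between -0.50 and 0.04 over the 10, and 4 of 5 retrieval genes had values above 0.

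**Figure D3:**
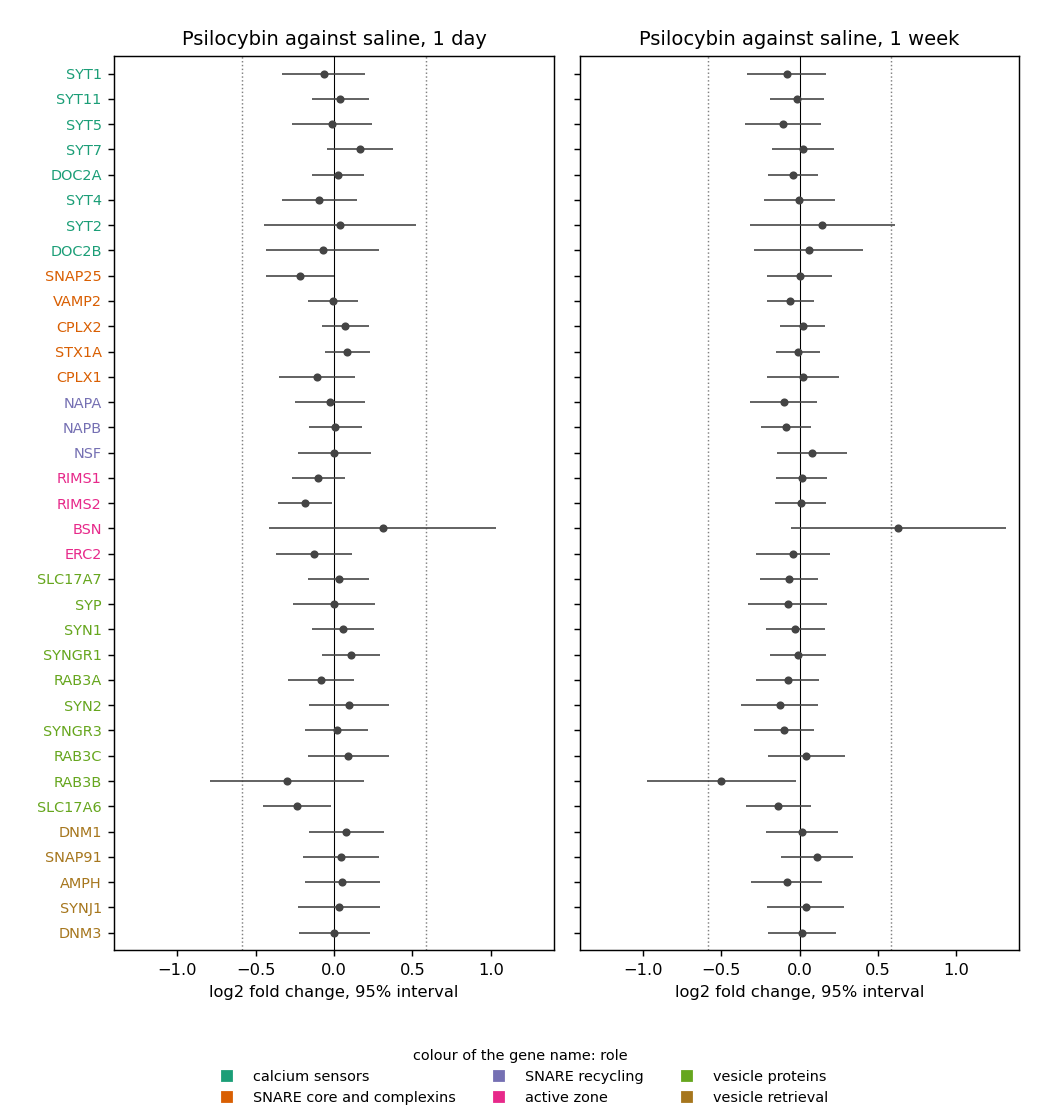
Log2 fold changes of psilocybin against saline for the 35 release genes, with 95% intervals, at 1 day (left) and at 1 week (right); dotted lines mark 1.5-fold. Of the intervals 33 lie inside the dotted lines at 1 day and 32 at 1 week, and BSN and RAB3B cross them at both times.

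The treatment effect was also compared between the times, as the interaction of treatment and time. With edgeR's quasi-likelihood test 0 of 35 members passed, against 0% of all genes, and 0 of 35 had an unadjusted p under 0.05, against 2.02% of all genes. DESeq2 and limma-voom likewise called 0 members, with 0 at the unadjusted threshold. So did edgeR without the 3 libraries standing apart (409 of 15088 genes at that threshold) or without animal 1 of every group (551 of 15060). The largest differences upward among those with the smallest p were in SNAP25 (0.22 ± 0.15), RIMS2 (0.19 ± 0.12) and RIMS1 (0.11 ± 0.12). Downward they were in the synapsin gene SYN2 (-0.22 ± 0.17), SYT7 (-0.15 ± 0.14) and STX1A (-0.09 ± 0.10). For SNAP25 the difference was -0.06 within batch 1 and 0.48 within batch 2.

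Across time, 1 week was set against 1 day within each treatment. These comparisons share their animals with those above and compare different animals at each time. Within saline 0 of 35 members passed with edgeR (0% of all genes), and 1 had an unadjusted p under 0.05, against 2.01% of all genes. That member was RIMS2, with 65.3 ± 4.62 CPM (SD, n = 5) at 1 day and 56.0 ± 5.33 (SD, n = 6) at 1 week. Its log2 fold change was -0.23 ± 0.08 (SE, adjusted p = 1 with edgeR). After psilocybin RIMS2 had 57.5 ± 5.74 CPM at 1 day and 56.2 ± 4.49 at 1 week (SD, n = 6 each), so the saline 1 day animals had the highest mean of the 4 groups.

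Within psilocybin 0 of 35 members passed with edgeR (0% of all genes), and 3 had an unadjusted p under 0.05, against 3.18% of all genes. They were the vesicle membrane gene SYNGR3 (-0.24 ± 0.09), the calcium sensor gene SYT5 (-0.26 ± 0.12) and SLC17A7 (-0.19 ± 0.09), each with an adjusted p of 0.999 in edgeR. SLC17A7 had 1163.1 ± 189.2 CPM at 1 day and 1018.6 ± 74.3 at 1 week (SD, n = 6 each), and these ranges overlapped. Without animal 1 of every group 0 members within psilocybin had an unadjusted p under 0.05 in edgeR, against 509 of 15060 genes. Without the 3 libraries standing apart 4 had one, against 952 of 15088 genes. Within saline the number was 1 in both cases, against 642 of 15060 and 433 of 15088 genes. DESeq2 called 0 members in either time comparison, with 1 within saline and 3 within psilocybin at the unadjusted threshold, and limma-voom called 0 with 1 in each. Values above 0 were found for 7 of 35 members within saline, against 51.7% of all genes (medians -0.06 and 0.00). Without the 3 libraries standing apart there were 5, and without animal 1 of every group 3. Within psilocybin 10 of 35 members were above 0, against 54.3% of all genes (medians -0.07 and 0.01), with 9 and 10 when those libraries were left out. Other lists were one-sided too, with no gene passing in edgeR. Within saline 1 of 41 ribosomal protein genes and 4 of 57 respiratory chain genes were above 0, as were all 7 astrocyte and all 5 vessel markers. Within psilocybin 37 of 41 ribosomal and 47 of 57 respiratory chain genes were above 0, as were all 8 microglia markers. Among nerve cell lists, general neuron markers that are not presynaptic had 1 of 9 values above 0 within saline and 2 of 9 within psilocybin. Excitatory markers had 3 of 8 and 2 of 8, and inhibitory markers 6 of 8 and 4 of 8. The further presynaptic genes described below had 44 of 74 and 36 of 74, so they did not share the members' one-sided values. The part of these lists in the members' values was not tested.

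Library scaling cancels in the ratio of 2 related genes within a library, and 11 such pairs were followed. In all 22 treatment contrasts of these ratios, 11 at each time, the ranges of psilocybin and saline animals overlapped, and the farthest from 0 was 0.40 on the log2 scale, for RAB3A over RAB3B at 1 week. Per kilobase of exon, SLC17A7 exceeded SLC17A6 by a mean of 6.95 on the log2 scale (123.9-fold), and the animals ranged from 6.48 to 7.46. DNM1 exceeded DNM3 by 5.81, SYT1 exceeded SYT2 by 4.20 and RAB3A exceeded RAB3C by 2.25. The size of such a ratio depends on the annotated exon lengths, which were 2839 bases for DNM1 and 12713 for DNM3. CPLX1 and CPLX2 were closest to parity together with NAPB and NAPA, with -0.45 and -0.16.

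The batch term of the same edgeR fit gave the only differences among the release genes that passed. In batch 2 against batch 1, 20 of 35 members had a Benjamini-Hochberg adjusted p under 0.05, 15 of them higher and 5 lower. Of all genes 32.9% passed, 16.1% higher and 16.8% lower. The median log2 fold change was 0.15 over the members and -0.02 over all genes. For each of the 20, the difference between batch means had the same sign in all 4 groups of treatment and time. Of the 15 members not called, 2 had this. The 20 were chosen by the batch term of the same libraries, which favours such agreement, so it is no separate support. No member had batch ranges that lay apart, against 0.545% of all genes. With animal 1 of every group left out 9 members passed, 7 higher and 2 lower, all 9 among the 20. The number over all genes went from 4955 to 1794. That fit has 4 fewer libraries, all of batch 1. The part of the smaller sample in these lower numbers was not tested. Without the 3 libraries standing apart 21 members passed, 17 higher and 4 lower, 19 of them among the 20. Of all genes 5799 of 15088 then passed.

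Of the genes of vesicle retrieval 4 of 5 were higher in batch 2, against 16.1% of all genes, and DNM1 (0.10 ± 0.08) did not pass. SNAP91 had 158.6 ± 26.0 CPM in the 11 batch 1 libraries and 213.3 ± 21.5 in the 12 of batch 2 (SD), a log2 fold change of 0.43 ± 0.08 (adjusted p = 0.000635). DNM3, a further dynamin, had 61.5 ± 8.27 and 81.7 ± 8.98 CPM (0.41 ± 0.08). The phosphatase gene SYNJ1, which takes part in shedding the clathrin coat, had 148.3 ± 24.7 and 191.5 ± 22.0 CPM (0.37 ± 0.09). AMPH, which recruits dynamin, had 116.1 ± 11.3 and 138.1 ± 22.4 CPM (0.25 ± 0.08). In each of these 4 genes the median of batch 2 lay above the highest library of batch 1. Without animal 1 of every group SNAP91 (0.31), DNM3 (0.32) and SYNJ1 (0.24) still passed, and AMPH (0.24) did not.

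In the active zone, BSN had 68.4 ± 37.2 CPM in batch 1 and 147.5 ± 45.3 in batch 2 (SD), and a log2 fold change of 1.16 ± 0.25 (adjusted p = 0.00156), the largest of any member. ERC2 had 42.8 ± 5.58 and 55.0 ± 7.94 CPM (0.35 ± 0.08). RIMS1 (-0.04 ± 0.06) and RIMS2 (-0.04 ± 0.06) did not pass, with mean levels that differed little between the batches. Without animal 1 of every group BSN had 0.78 and ERC2 0.31, and both passed.

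Among vesicle proteins 4 of 10 were higher and 1 lower in batch 2, against 16.1% and 16.8% of all genes. RAB3C (ENSSSCG00000031796, chromosome 16, 37351677 to 37728507, plus strand) had 103.6 to 173.2 CPM over batch 1, with a median of 142.7, and 159.6 to 249.4 over batch 2, with a median of 212.0. The ranges met only between 159.6 and 173.2 CPM. Its log2 fold change of 0.60 ± 0.09 had the smallest adjusted p of the members, 0.00011. RAB3A went the other way, with 613.2 ± 87.6 and 530.9 ± 52.9 CPM (-0.22 ± 0.07), so the log2 ratio of RAB3A to RAB3C per kilobase went from 2.67 ± 0.41 in batch 1 to 1.86 ± 0.20 in batch 2 (SD). SYN2 (0.34 ± 0.09), SYNGR3 (0.18 ± 0.07) and SYNGR1 (0.16 ± 0.06) were higher in batch 2, while SYP, SYN1, SLC17A7, SLC17A6 and RAB3B did not pass. Without animal 1 of every group only RAB3C (0.47) of these passed. SYNGR3 (0.22), SYNGR1 (0.16) and SYN2 (0.28) then kept values of similar size, and RAB3A had -0.09.

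The complexins also divided. CPLX1 (ENSSSCG00000037527, chromosome 8, 197877 to 232036, minus strand) had 391.7 to 588.2 CPM in batch 1, with a median of 438.1, and 275.5 to 449.0 in batch 2, with a median of 351.7. It was lower in batch 2 by a log2 fold change of -0.46 ± 0.08 (adjusted p = 0.000347), and within each of the 4 groups the difference lay between -0.50 and -0.42. CPLX2 had 1024.7 ± 81.4 and 1151.8 ± 67.2 CPM (0.17 ± 0.05). The log2 ratio of CPLX1 to CPLX2 went from -0.12 ± 0.22 to -0.75 ± 0.17 (SD). Of the SNARE genes, STX1A was higher (0.14 ± 0.05), SNAP25 lower (-0.22 ± 0.07), and VAMP2 did not pass (0.05 ± 0.05). The adaptor gene NAPA was lower (-0.21 ± 0.07), while NSF (0.15 ± 0.08) and NAPB (-0.02 ± 0.06) did not pass. Without animal 1 of every group CPLX1 (-0.35) passed. CPLX2 (0.15), STX1A (0.14) and SNAP25 (-0.16) did not pass but had values of similar size, and NAPA had -0.04.

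Of the synaptotagmin and DOC2 genes 3 of 8 were higher and 1 lower, against 16.1% and 16.8% of all genes. SYT2 (ENSSSCG00000010926, chromosome 10, 24638411 to 24727220, minus strand), the fast sensor of many inhibitory terminals, had 60.3 to 173.9 CPM in batch 1, with a median of 89.4, and 38.0 to 88.9 in batch 2, with a median of 56.4. Its log2 fold change was -0.77 ± 0.16 (adjusted p = 0.00148). The parvalbumin gene PVALB, a marker of fast-spiking inhibitory cells, had means of 56.3 CPM in batch 1 and 37.1 in batch 2. The means of the inhibitory markers GAD1, SST and ADARB2 were also lower in batch 2. Those of GAD2, SLC32A1, VIP and LHX6 were higher. Of all 8 inhibitory markers, 4 had log2 fold changes above 0 and 4 below. Of these 8 markers 2 passed as higher and 1 as lower, against 16.1% and 16.8% of all genes. The summed level of the 8 ran from 487.1 to 728.3 CPM in batch 1 and from 507.0 to 653.4 in batch 2. SYT4 (0.29 ± 0.08), SYT7 (0.21 ± 0.07) and SYT11 (0.18 ± 0.06) were higher in batch 2, and SYT1 (0.18 ± 0.09), SYT5, DOC2A and DOC2B did not pass. Without animal 1 of every group SYT2 (-0.82) and SYT7 (0.23) passed, and SYT4 (0.24) and SYT11 (0.18) did not pass but had values of similar size.

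**Figure D4:**
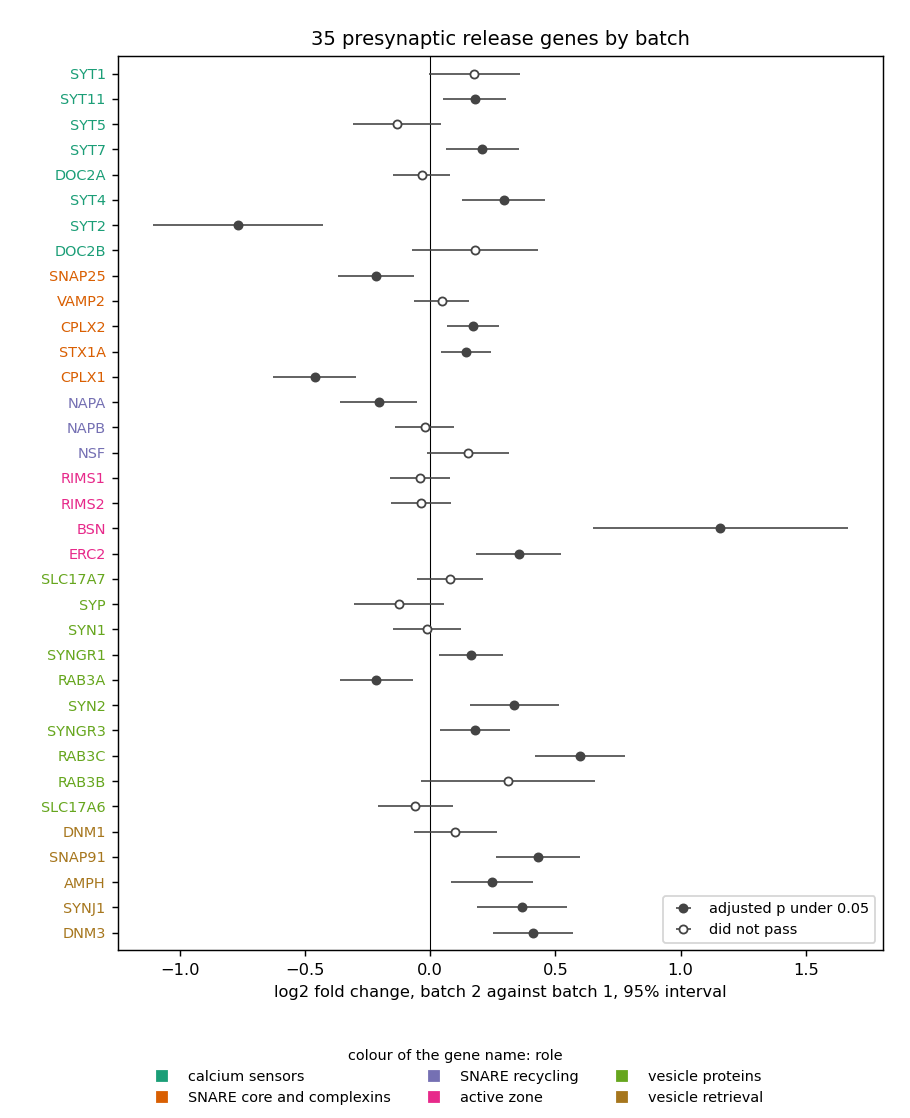
Log2 fold changes of the 35 release genes in batch 2 against batch 1, with 95% intervals; filled points passed a Benjamini-Hochberg adjusted p of 0.05 in edgeR. Of the 20 filled points 15 lie right of 0, with BSN farthest at 1.16, and 5 lie left of it, with SYT2 farthest at -0.77.

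Other features of the libraries were set beside these batch differences. All 8 microglia markers were lower in batch 2, with summed levels of 255.6 to 396.5 CPM in batch 1 and 162.4 to 324.3 in batch 2. Of 7 astrocyte markers 4 were higher (2723.1 to 6177.9 and 3819.6 to 5360.0 CPM summed), and of 8 excitatory markers 4 were higher and 1 lower (4984.9 to 6770.4 and 5070.9 to 6225.5). Of 9 general neuron markers 3 were higher and 1 lower, and of 6 oligodendrocyte markers 0 passed. Over all genes 16.1% were higher and 16.8% lower. Of 57 respiratory chain genes 25 were lower in batch 2. Of 41 ribosomal protein genes 4 were lower, a smaller share than over all genes, though 40 of the 41 values were below 0. The median exon length was 5227 bases for the 15 members higher in batch 2 and 2502 for the 5 lower ones, and 5008 and 3132 over all genes that passed in those directions. The member lengths overlapped widely, from 867 to 12713 bases for the higher and from 1711 to 6688 for the lower ones. Across genes, which are not independent replicates, length and log2 fold change had a Pearson r of 0.28 over the 35 members and 0.15 over all genes tested. The Spearman rho was 0.25 over the members and 0.22 over all genes tested. The part of these features in the differences of the release genes was not tested.

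The low BSN level of animal 1 in every group was shared by further members. In BSN, RAB3C, SNAP91, DNM3 and SYNJ1 these were the 4 lowest of the 23 libraries, as they were for 3.28% of all genes tested. BSN had 25.5 to 34.8 CPM in them, 58.7 to 133.6 in the other 7 libraries of batch 1 and 78.4 to 210.7 in batch 2. RAB3C had 103.6 to 125.4, 131.2 to 173.2 and 159.6 to 249.4 CPM. SNAP91 had 126.0 to 134.9 CPM in them and at least 162.6 in all other libraries. NAPA went the other way, with 266.4 to 319.0 CPM in animal 1 of every group. It had 195.2 to 251.2 in the other 7 libraries of batch 1 and 176.6 to 243.4 in batch 2. The share of all genes with their highest levels in these 4 libraries was not counted. These libraries were set apart after their levels were seen, so no test was made on them.

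**Figure D5:**
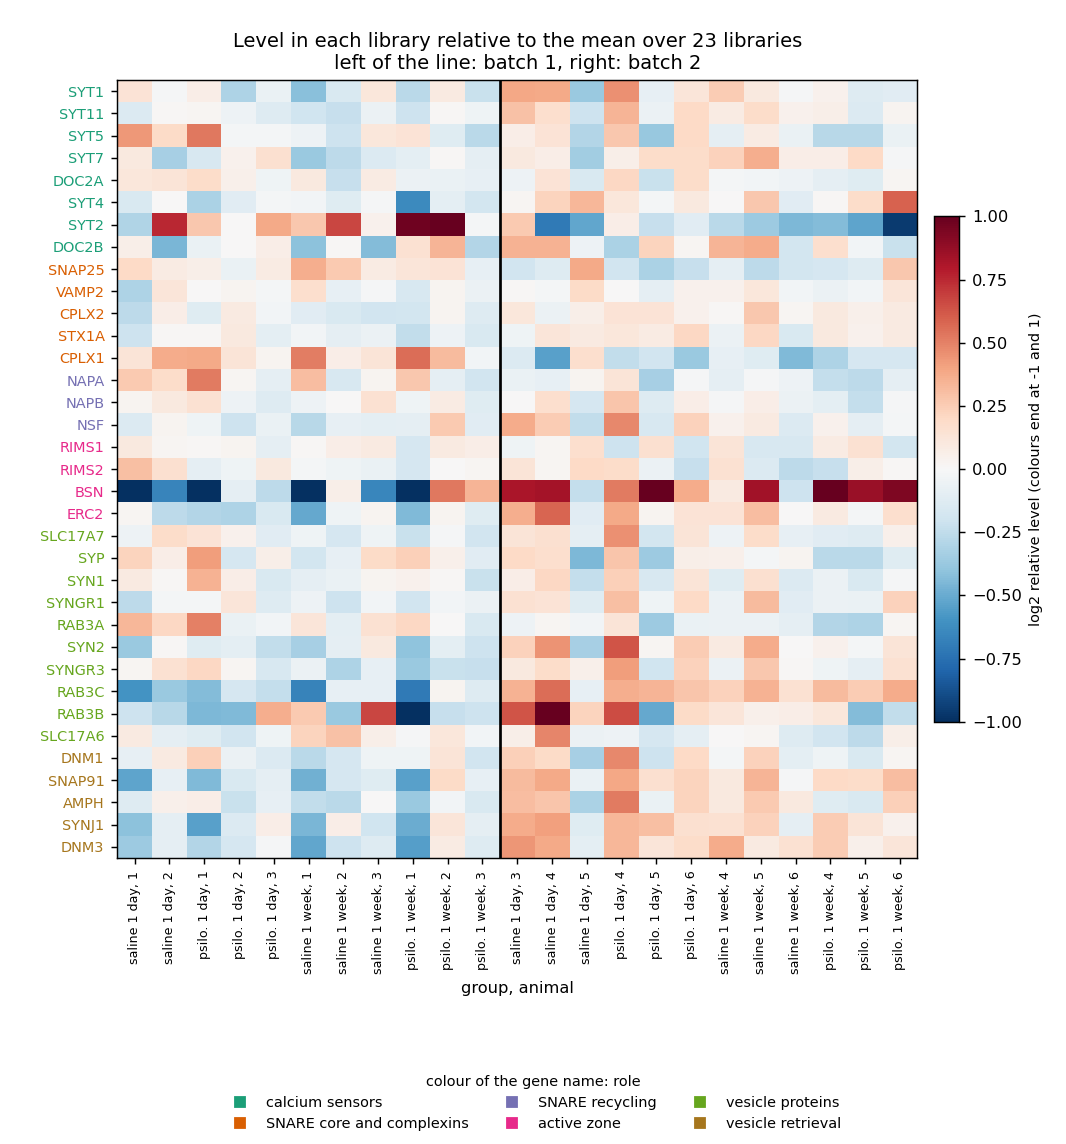
Log2 level of each release gene in each library relative to its mean over the 23 libraries, with batch 1 left of the line and batch 2 right of it; colours end at -1 and 1. BSN is at the dark blue end in animal 1 of all 4 groups, SYT2 is mostly red in batch 1 and blue in batch 2, and CPLX1 goes the same way.

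Beyond the listed members, 74 of 80 further presynaptic genes were tested, among them other synaptotagmins, syntaxins, liprins and clathrin adaptors. None passed in the treatment comparisons, where edgeR, DESeq2 and limma-voom each called 0 of all genes. At 1 day 46 of 74 had values above 0 (median 0.03), and 2 had an unadjusted p under 0.05, against 2.83% of all genes. One of these was PICALM, a clathrin assembly gene (-0.14 ± 0.07). At 1 week 38 of 74 had values above 0 (median 0.00), and 1 had an unadjusted p under 0.05 (1.99% of all genes), the vesicle glycoprotein gene SV2C (0.64 ± 0.30, adjusted p = 1). By batch 37 of the 74 passed, 27 higher and 10 lower in batch 2 (median 0.10), against 32.9% of all genes, 16.1% higher and 16.8% lower. SV2C (1.65 ± 0.22) and STXBP5L, a tomosyn that holds back SNARE assembly (0.57 ± 0.08), were among the higher ones, and BIN1, which shapes membranes (-0.26 ± 0.07), among the lower ones.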

How the data were processed

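The submitters' processing notes name fastp 0.20.0 for trimming, STAR 2.6c for alignment, featureCounts 1.5.1 for counting, and the pig build susScr11. Counting, per the file headers, ignored strand and shared reads between overlapping genes, so the deposited values are expected counts (72.2% whole, tolerance 0). They were rounded for the models, which moved no library total by more than 0.0013%. Symbols came from an Ensembl name table, which named 14857 of 25880 identifiers, and positions from the deposited table.

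Genes were kept by edgeR's filterByExpr (minimum count 10, minimum total 15), scaled by TMM and tested with the quasi-likelihood F test (robust) of edgeR 4.0.16 in R 4.3.3, in 1 model of 4 groups plus batch, two-sided, adjusted over 15049 genes by Benjamini-Hochberg. CPM uses TMM-scaled totals, and list scores are mean log2 CPM (prior count 2) relative to the mean over libraries. Groups share no submitters' animal number and the labels state no pairing, so nothing was paired, and p-values measure the spread between animals.

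Members were given, and the members and lists were chosen with earlier results of these data known. Named are members that passed in any of the 6 comparisons, the 3 with the smallest p per direction in the treatment comparisons, the 5 highest and 3 lowest per kilobase, and related pairs. Members with an unadjusted p under 0.05 over time, and those spread widely between animals, were named after their values were seen. Of the further genes, those that passed or the 2 with the smallest p per direction qualify, and only a few are printed; 1 of them is not reported here. Alternatives were size factors by RLE, no or a stricter filter (1 CPM in 5 libraries), DESeq2 1.42.0, voom of limma 3.58.1, no batch term, each batch alone, and leaving out the 3 libraries standing apart or each animal. Leaving out animal 1 of every group was added after the data were seen.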

Additional observations from a re-analysis of the deposited data

Results flagged for a closer look

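In 8 of the 140 sets of a member's values within 1 group, 1 animal lay far from the others (Dixon's gap test at 95%). Chance gives about 1 in 20 such sets. Saline 1 week animal 5 was the high animal in 4 of them. It had 136.4 CPM of SYT4, the next animal having 112.8, and 177.8 CPM of STX1A, the next having 150.9. It also had 815.1 CPM of SYNGR1 against 639.3 and 1232.5 CPM of the glutamate transporter gene SLC17A7 against 1063.4. In the psilocybin 1 week group, animal 6 had 765.0 CPM of SYNGR1, the next having 641.7. Animal 1 of that group had 268.6 CPM of the SNAP adaptor gene NAPA, the next having 208.8. NAPA was also high in animal 1 of the other groups, as given above. In the saline 1 day group, animal 5 had 874.2 CPM of the vesicle gene SYP, where the next lowest had 1250.9. In the same group animal 4 had 23.9 CPM of SLC17A6, the next having 18.0.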

How the results depend on the processing

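No member passed in any comparison of treatment or time under any of the alternatives run, and no single animal decided a call there. Leaving out 1 animal moved the members' median log2 fold change between -0.04 and 0.06 at 1 day, between -0.05 and 0.00 at 1 week and between -0.08 and 0.02 for their difference (0.02 without saline 1 day animal 5). By batch, 20 members passed, between 15 and 21 with 1 animal left out, and 9 without animal 1 of every group, which was added once levels were known and tests fewer samples. Of the 20, 8 passed in all 30 alternatives: SNAP91, SYT2, BSN, ERC2, SYNJ1, RAB3C, CPLX1 and DNM3. SYNGR3, SYNGR1 and NAPA passed in 13, 15 and 14 of the 30. Each batch alone was run for the members' medians and the members named by smallest p. Among those, 4 single members that had not passed changed sign: NSF at 1 week (-0.025 in batch 2), and for the difference between times SYT7 (0.07 in batch 1), STX1A (0.003 in batch 2) and SNAP25 (-0.061 in batch 1). The median at 1 day (0.01) was -0.03 in batch 1, and that of the difference (-0.05) was 0.01. The cause was not tested. No paired analysis was possible because the groups share no submitters' animal number and the labels state no pairing. The fewest counts lie behind DOC2B and SLC17A6, and the widest spread between animals behind BSN, RAB3B and SYT2.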
